A study of Mus musculus with 44 samples.

Results

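The cell cycle and mitosis genes described here are 43 genes named by symbol, among them the replicative helicase subunits, the mitotic cyclins and kinases, the spindle checkpoint and the proliferation antigen Ki-67. A gene was taken when it reached 1 CPM (reads scaled to a library total of 1000000) in at least 5 of the 44 libraries. All 43 named genes met this minimum, of 14699 genes in the deposited table and 11963 that met it. They fall into 8 roles, with 16 genes of DNA replication and its supply and regulation and 27 genes of mitosis and chromosomes.

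RNA was measured in dendritic cells sorted as CD45+CD11c+MHCIIhigh from the draining lymph nodes of mice, 24 h after an injection given at Zeitgeber time (ZT, hours after lights on) 3, 9, 15 or 21. In the WT condition, mice with the label WT received B16-F10-OVA cells, a melanoma line that expresses ovalbumin, with 5 mice at each timepoint and 20 in all. In the KO condition, Clec9a-cre:Bmal1 flox mice, homozygous for the floxed allele and heterozygous for the cre, received the same cells, with 3 mice at each timepoint and 12 in all. In the PBS condition, mice with the label WT received a sham injection, with 3 mice at each timepoint and 12 in all. All mice were females of 8 to 12 weeks, and the Clec9a-driven cre acts in conventional dendritic cells and their precursors, so that other cells in the sort would keep the gene. The WT and KO mice came from 2 independent experiments, which the labels do not assign. The study's methods give no such number for the PBS mice.

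Dividing cells switch these genes on in order. Helicase subunits (MCM proteins) are loaded on replication origins before S phase, E2F factors turn on replication and nucleotide genes at its start, and cyclin B with CDK1 and the Aurora and Polo kinases drive mitosis until the anaphase-promoting complex degrades the cyclins. Mature dendritic cells that have migrated to a lymph node are largely out of cycle, whereas their precursors and part of the lymph-node resident dendritic cells still divide.

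Arntl, the gene for BMAL1 that the floxed allele targets, was not lower in the libraries labelled KO. It lay at 11.5 to 38.0 CPM (median 18.0) in them, at 8.67 to 24.4 CPM (median 14.8) in WT and at 12.3 to 34.8 CPM (median 21.9) in PBS. On log2(CPM + 0.5), averaged over the timepoints, it was 0.38 ± 0.12 (SE) higher in the libraries labelled KO than in WT (limma, adjusted p = 0.0153). Whether reads of a gene model that lacks only the floxed part would show the deletion cannot be told from values per gene, so the label alone is used to name these libraries.

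The libraries held 20088012 to 28962671 reads on genes in WT, 29406729 to 55799163 in the libraries labelled KO and 28003328 to 49590055 in PBS, so that 1 read was worth at most 0.0498 CPM. Depth and condition therefore moved together, and WT was the shallowest. The deepest WT library (ZT15 replicate 3) had a mean log2(CPM + 0.5) over the 43 genes of 3.06, against 3.97 in the shallowest PBS library (ZT9 replicate 1) and 3.94 in the shallowest library labelled KO (ZT15 replicate 3). The 9 dendritic cell markers summed to 17944 to 29691 CPM in WT, 19408 to 30364 CPM in the libraries labelled KO and 22175 to 29178 CPM in PBS, with none of them at 0 in every library of a condition. Replicates of 1 condition and timepoint correlated across the tested genes at Pearson's r of 0.924 to 0.984, and no 2 libraries were copies.

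Cell cycle promoters are known for 3 short elements. E2F factors bind short GC-rich sites in replication genes, while mitotic genes often hold CCAAT boxes, bound by NF-Y, and a cell cycle genes homology region (CHR), bound by the MuvB complexes. The 180 bases before the start site are shown for 5 genes of mitosis and chromosomes and 3 of replication, since both groups differ between the conditions below. They come from RefSeq promoters on GRCm38.p6, read 5′ to 3′ on the gene's strand, and end at the base before the RefSeq start. Capitals mark matches on either strand of CCAAT, of the CHR letters, either TTTGAA or else TTCGAA, and of 4 E2F heptamers. These heptamers were TTCCCGC first, then also TTCGCGC in the search, the related TTGCCGC as another, and finally TTGGCGC.
Hmgb2: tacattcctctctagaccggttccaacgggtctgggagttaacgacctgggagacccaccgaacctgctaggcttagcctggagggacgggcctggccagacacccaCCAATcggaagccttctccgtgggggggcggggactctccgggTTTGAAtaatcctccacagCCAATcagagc
Ccnb2: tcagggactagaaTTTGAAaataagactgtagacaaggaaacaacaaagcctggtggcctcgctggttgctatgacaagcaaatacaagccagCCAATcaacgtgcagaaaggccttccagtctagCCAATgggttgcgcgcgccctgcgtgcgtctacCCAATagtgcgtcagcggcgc
Top2a: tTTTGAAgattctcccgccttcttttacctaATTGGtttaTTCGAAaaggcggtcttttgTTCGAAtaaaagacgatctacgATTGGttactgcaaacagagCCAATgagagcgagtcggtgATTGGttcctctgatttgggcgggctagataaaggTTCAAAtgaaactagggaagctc
Mki67: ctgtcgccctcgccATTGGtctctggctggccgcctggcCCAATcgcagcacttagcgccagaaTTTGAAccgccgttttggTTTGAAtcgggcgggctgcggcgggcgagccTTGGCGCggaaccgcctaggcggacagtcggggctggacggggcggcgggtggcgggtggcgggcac
Kif11: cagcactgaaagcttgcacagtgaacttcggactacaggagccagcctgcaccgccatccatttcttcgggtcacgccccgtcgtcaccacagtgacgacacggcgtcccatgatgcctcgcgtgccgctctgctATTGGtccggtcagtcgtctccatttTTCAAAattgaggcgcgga
Mcm5: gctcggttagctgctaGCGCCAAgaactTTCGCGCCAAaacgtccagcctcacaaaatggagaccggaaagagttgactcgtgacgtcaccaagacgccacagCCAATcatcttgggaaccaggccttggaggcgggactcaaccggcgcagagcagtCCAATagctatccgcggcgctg
Mcm6: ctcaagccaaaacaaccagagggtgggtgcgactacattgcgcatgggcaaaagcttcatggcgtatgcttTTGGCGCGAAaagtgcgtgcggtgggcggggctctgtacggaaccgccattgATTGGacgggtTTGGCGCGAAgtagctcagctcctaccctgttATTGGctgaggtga
Rrm1: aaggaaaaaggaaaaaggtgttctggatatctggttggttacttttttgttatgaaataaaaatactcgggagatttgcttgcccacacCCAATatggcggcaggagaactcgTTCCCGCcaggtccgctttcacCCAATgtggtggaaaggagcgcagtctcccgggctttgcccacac
These stretches lie at chr8:57511663-57511842 (+ strand) for Hmgb2, chr9:70421555-70421734 (- strand) for Ccnb2, chr11:99024190-99024369 (- strand) for Top2a, chr7:135716380-135716559 (- strand) for Mki67, chr19:37376202-37376381 (+ strand) for Kif11, chr8:75109329-75109508 (+ strand) for Mcm5, chr1:128359706-128359885 (- strand) for Mcm6 and chr7:102441515-102441694 (+ strand) for Rrm1, and none of them overlaps an annotated exon.

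Top2a, the topoisomerase that untangles sister chromatids, held 4 CCAAT boxes and 4 CHR matches in these bases, the last CHR match starting 23 bases before the start. In Hmgb2, an abundant chromatin protein, a CHR match starting 30 bases before the start stood between 2 CCAAT boxes. Mki67 held 2 CCAAT boxes, 2 CHR matches and 1 E2F heptamer. Mcm6 held E2F heptamers on both strands inside 2 overlapping runs, counted as 4 matches, and Mcm5 held 3. Over the 250 bases before the start, 36 of the 43 genes had a promoter in the table, with 38 promoters between them. A CCAAT box on either strand was found in 76.3% of these 38 against 33.8% of all 32851 promoters, a CHR match in 34.2% against 17.1%, and an E2F heptamer in 28.9% against 7.89%. Of the 15 promoters of replication genes, 8 held an E2F heptamer and 3 a CHR match, and of the 23 of mitosis and chromosome genes 3 held an E2F heptamer and 10 a CHR match. The E-box CACGTG, the letters read by the clock factors CLOCK and BMAL1 among others, was found in 5.26% of the 38 and 6.02% of all. TTGG at the end of a reversed CCAAT box can overlap the heptamer TTGGCGC, and each letter match is a description of these windows, not a measured site. Promoters of Aurkb, Ccna2, Gins2, Kif20a, Mcm4, Stmn1 and Tpx2 were not used.

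**Figure D1:**
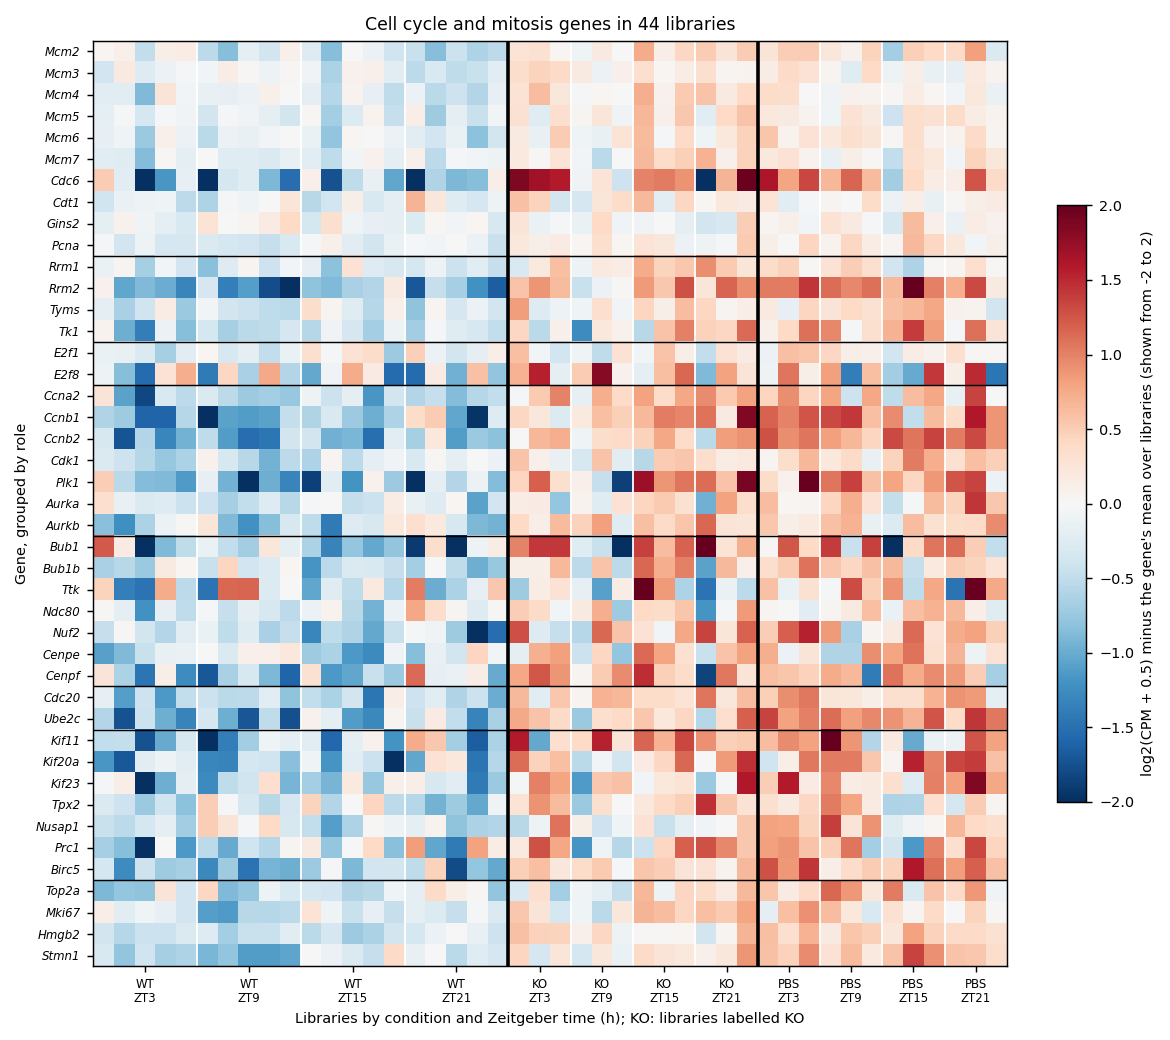
Level of each of the 43 genes in each of the 44 libraries, as log2(CPM + 0.5) minus the gene's mean over all libraries, with the genes grouped by role (black horizontal lines) and the libraries by condition (black vertical lines) and Zeitgeber time (white lines). Most rows are blue (below the gene's mean) in the 20 WT libraries and red (above it) in the 12 labelled KO and 12 PBS libraries, and the rows with the largest swings between replicates are low genes such as Cdc6, E2f8, Bub1, Ttk and Cenpf.

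The 43 genes differed widely in level. Per kilobase of annotated exon, the median over the 44 libraries was highest for Hmgb2 at 82.0 CPM per kilobase. It was followed by Pcna, the sliding clamp of DNA polymerase, at 32.6, by Stmn1, the microtubule-destabilizing protein stathmin, at 21.7, and by Mcm3 at 21.6. The lowest were the kinetochore proteins Cenpf and Ttk at 0.14 and 0.17 CPM per kilobase, and the repressor E2f8 at 0.20. Mki67 was at 1.21 CPM per kilobase and Plk1 at 1.65. Of the 20 WT libraries, Ttk reached 1 CPM in 7, E2f8 in 8, Cdc6 and Cenpf in 9 and Bub1 in 10, and in the 12 PBS libraries the same genes reached it in 8, 7, 11, 10 and 11. The library values of these low genes scatter widely. Values of Kif20a (100% of libraries), Ccna2 (95.5%), Ndc80 (72.7%), Tyms (63.6%) and Nusap1 (27.3%) were not whole reads, whereas at most 6.82% of libraries were so for any of the others.

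WT against sham injection asks what the tumour cells changed in dendritic cells of mice with the same genotype label. The cell cycle genes were lower in WT than in PBS. All 43 had a negative difference, 39 of them passed the test (adjusted p under 0.05, limma with Benjamini-Hochberg adjustment over 11963 genes), and none was higher. Among all genes 24.6% were called lower and 13.3% higher. The median difference of the 43 was -0.82 on log2(CPM + 0.5), against -0.04 over all genes tested. In sorted bulk RNA, fewer dividing cells and less of this RNA in each cell cannot be told apart. Depth also differed between WT and PBS, as did markers of other cells described below, and their part was not tested. With median-of-ratios scaling, 2079 genes were called higher and 2430 lower in place of 1589 and 2940, and the median of the 43 was -0.77 with 38 called lower. The p-values measure the spread between the libraries of this series.

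Among the replication genes, 8 of 10 licensing and fork genes were lower, with a median difference of -0.34, and so were all 4 nucleotide supply genes. Rrm2, the S-phase subunit of ribonucleotide reductase, moved furthest of all 43. It lay at 2.68 to 13.7 CPM (median 6.08) in WT and at 13.7 to 50.1 CPM (median 25.4) in PBS. Only the highest WT library touched the lowest PBS library. The difference was -2.005 ± 0.184 (SE), a 4.01-fold lower level on this scale, with adjusted p = 1.67e-09. Its larger partner Rrm1 was at 27.4 to 60.8 CPM (median 41.3) in WT and 32.1 to 70.0 CPM (median 55.9) in PBS, a difference of -0.39 ± 0.10. Cdc6, which loads the MCM helicase, was at 0 to 2.67 CPM in WT, with 3 libraries at 0, and at 0.88 to 6.34 CPM in PBS, a difference of -1.46 ± 0.26.

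The helicase subunits moved less. Mcm5 lay at 26.6 to 48.3 CPM (median 38.3) in WT and at 32.7 to 56.7 CPM (median 49.9) in PBS, and the difference was -0.35 ± 0.09 with adjusted p = 0.00327. The 6 subunits Mcm2 to Mcm7 had differences of -0.58 to -0.25 and were all called. Pcna lay at 57.4 to 84.5 CPM (median 66.5) in WT and at 76.4 to 124 CPM (median 87.0) in PBS, with a difference of -0.43 ± 0.07 and adjusted p = 1.45e-05. These libraries overlapped between the conditions although their medians were apart. Cdt1, the licensing factor, and the GINS subunit Gins2 were not called, at -0.19 ± 0.10 and -0.13 ± 0.08. Of the E2F factors, the activator E2f1 was called at -0.28 ± 0.11 (adjusted p = 0.0497) and E2f8 was not, at -0.44 ± 0.35.

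All 7 cyclins and mitotic kinases were lower in WT than in PBS, with a median difference of -1.0005. Ccnb2, cyclin B2, was at 1.21 to 6.03 CPM (median 2.58) in WT and at 7.07 to 13.8 CPM (median 11.1) in PBS. Every WT library was below every PBS library. The difference was -1.86 ± 0.16, with adjusted p = 4.08e-10. Ccnb1, cyclin B1, lay at 0 to 8.81 CPM (median 3.48) in WT and at 4.15 to 19.4 CPM (median 12.3) in PBS, a difference of -1.80 ± 0.27. Their kinase Cdk1 lay at 6.32 to 13.4 CPM (median 10.1) in WT and at 11.3 to 26.3 CPM (median 16.9) in PBS, a difference of -0.77 ± 0.10 with adjusted p = 3.98e-07. Both genes overlapped between the conditions only in their tails. The Polo kinase Plk1 was at 0.09 to 4.96 CPM (median 1.64) in WT and at 3.10 to 14.9 CPM (median 6.45) in PBS, a difference of -1.69 ± 0.27.

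Later steps of mitosis followed the same direction. The 2 partners of the anaphase-promoting complex were both lower. Ube2c, its ubiquitin-conjugating enzyme, was at 1.54 to 7.199 CPM (median 3.98) in WT and at 8.40 to 18.1 CPM (median 13.0) in PBS, without overlap, and differed by -1.76 ± 0.19. Cdc20, its activator, differed by -1.06 ± 0.14. Of the 7 kinetochore and checkpoint genes 6 were lower, and Ttk was not called at -0.61 ± 0.33. The call of Bub1, a checkpoint kinase at 0 to 4.69 CPM (median 0.99) in WT and 0 to 5.36 CPM (median 2.50) in PBS, had an adjusted p of 0.0291 and was lost in 8 of 38 alternatives (up to 0.0875). All 7 spindle motor, midzone and passenger genes were lower, led by the passenger protein survivin, Birc5, at 1.54 to 9.17 CPM (median 3.78) in WT and 7.25 to 20.8 CPM (median 12.2) in PBS, a difference of -1.60 ± 0.16 with adjusted p = 1.07e-08.

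The 4 chromatin, proliferation antigen and microtubule genes were lower too. Hmgb2 was at 149 to 244 CPM (median 188) in WT and at 279 to 427 CPM (median 330) in PBS, again without overlap. Its difference was -0.84 ± 0.07, with adjusted p = 1.37e-10, the smallest of the 43. Stmn1 lay at 18.2 to 52.4 CPM (median 29.7) in WT and at 46.4 to 103 CPM (median 59.8) in PBS, with a difference of -1.10 ± 0.09. Only the highest WT library, at ZT15, was above the lowest PBS libraries. Mki67, which encodes the antigen Ki-67, was at 5.57 to 15.5 CPM (median 10.4) in WT and at 10.2 to 24.6 CPM (median 15.4) in PBS, and Top2a at 6.58 to 17.1 CPM (median 9.80) and 10.4 to 29.0 CPM (median 17.9). Their differences were -0.59 ± 0.11 and -0.82 ± 0.16. Over all 43 genes, Ccnb2, Ube2c and Hmgb2 had every WT library below every PBS library, and 1.73% of all genes tested did.

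**Figure D2:**
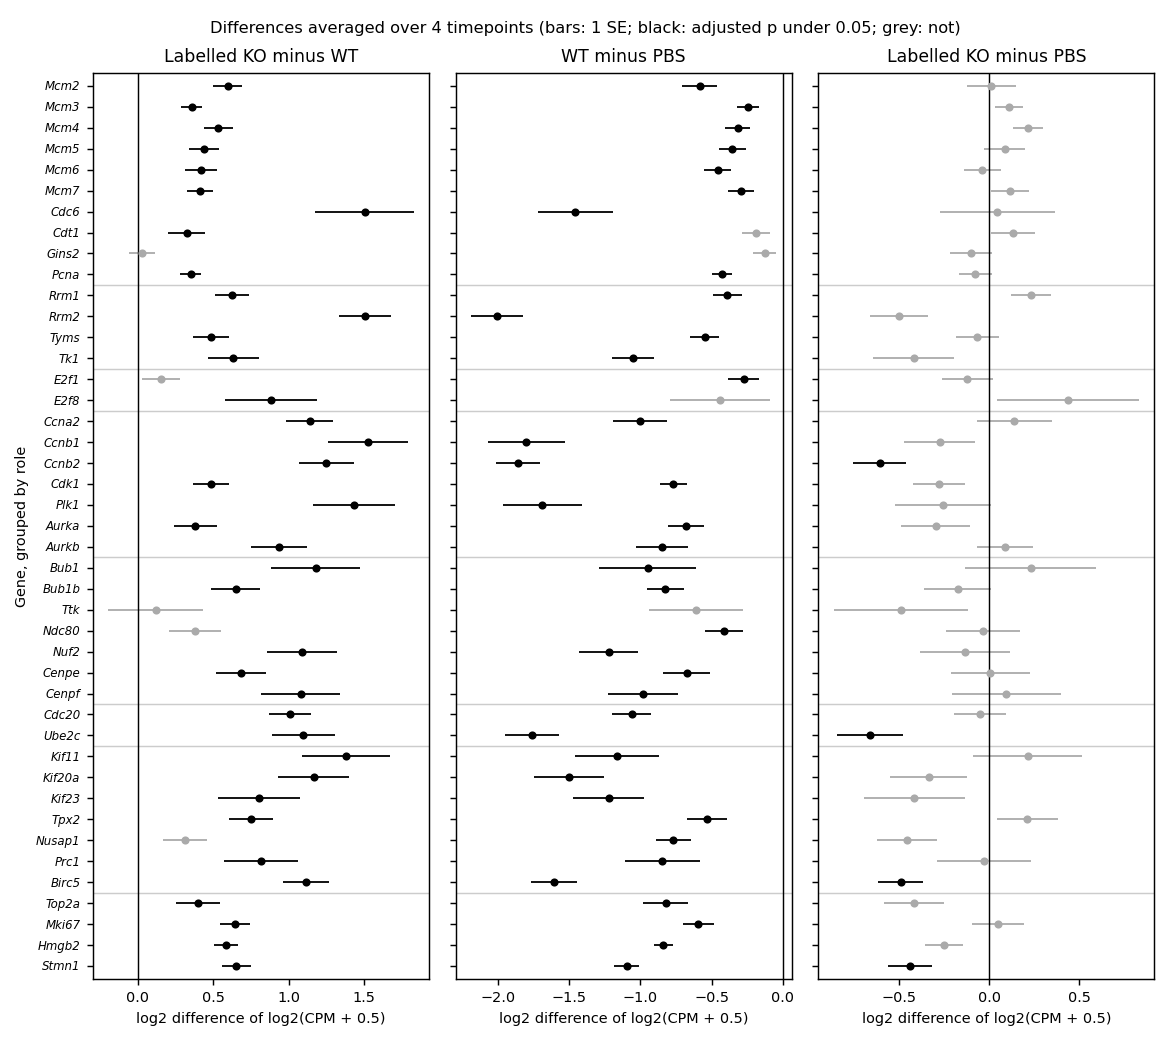
Difference of each of the 43 genes between conditions on log2(CPM + 0.5), averaged over the 4 timepoints, as a point with a bar of 1 SE on each side, black where the adjusted p was under 0.05 and grey where not. All points of the left panel (labelled KO minus WT) lie right of 0, where the bars of Gins2 and Ttk cross it. All points of the middle panel (WT minus PBS) lie left of 0, and both panels use the WT libraries. The right panel (labelled KO minus PBS) straddles 0 with 4 black points, and each panel has its own horizontal scale.

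The libraries labelled KO were compared with WT to ask what the genotype changed after the same injection. Every one of the 43 genes had a positive difference, 38 were called higher and none lower. The background was 23.5% of all genes called higher and 10.2% called lower. The median difference was 0.65, against 0.10 over all genes. With median-of-ratios scaling the median over all genes was 0.01 and the calls over all genes were 1748 higher and 1753 lower, in place of 2813 and 1218, and the median of the 43 was then 0.56 with 35 called higher. The WT libraries are shared by this comparison and the one with PBS, so the mirrored directions are not independent. Depth and markers of other cells differed here too, and their part was not tested.

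Of the replication genes, 9 of 10 licensing and fork genes and all 4 supply genes were called higher. Rrm2 lay at 8.80 to 30.1 CPM (median 18.7) in the libraries labelled KO, which overlapped the WT range only below 13.7 CPM. It differed by 1.504 ± 0.172, a 2.84-fold higher level, with adjusted p = 1.80e-07, the smallest of the 43. Mcm5 lay at 37.1 to 70.1 CPM (median 53.1) and Pcna at 73.0 to 114 CPM (median 86.9). They differed from WT by 0.44 ± 0.10 (adjusted p = 0.00132) and 0.35 ± 0.07 (adjusted p = 0.000294). Rrm1 lay at 39.8 to 94.4 CPM (median 62.9) and Cdc6 at 0 to 8.19 CPM (median 3.81), with 1 library at 0. Gins2 was at 13.6 to 25.0 CPM against 13.7 to 23.5 CPM in WT, a difference of 0.03 ± 0.09 that was not called.

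All 7 cyclins and mitotic kinases were called higher, with a median difference of 1.14. Ccna2, cyclin A2, was at 6.96 to 16.2 CPM (median 12.5) against 1.88 to 9.54 CPM (median 5.33) in WT and 5.42 to 20.8 CPM (median 11.6) in PBS, a difference from WT of 1.14 ± 0.16 with adjusted p = 2.66e-06. Ccnb1 was at 4.89 to 23.1 CPM (median 9.005) and Plk1 at 0.57 to 14.0 CPM (median 5.999). Ccnb1 differed by 1.52 ± 0.27, the widest of the 43, and Plk1 by 1.43 ± 0.27. Ccnb2 lay at 3.39 to 9.97 CPM (median 7.04), between WT and PBS, and differed from WT by 1.25 ± 0.18. Cdk1, at 8.41 to 18.9 CPM (median 14.2), differed by 0.49 ± 0.12. Aurka, the spindle pole kinase, lay at 3.53 to 13.2 CPM (median 8.62) against 3.23 to 9.33 CPM (median 5.97) in WT and 5.12 to 20.5 CPM (median 10.1) in PBS. It was called at 0.38 ± 0.14 with adjusted p = 0.0400, a call lost in 17 of 38 alternatives, median-of-ratios scaling and the replicate block among them (adjusted p up to 0.177).

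Both anaphase-promoting complex partners were called, Cdc20 at 1.01 ± 0.14 (7.52 to 18.9 CPM against 2.87 to 9.60 CPM in WT and 7.58 to 18.6 CPM in PBS) and Ube2c at 1.10 ± 0.21 (3.61 to 15.3 CPM, median 8.49). Birc5 was at 6.43 to 10.5 CPM (median 8.92), with a difference of 1.11 ± 0.15 and adjusted p = 2.96e-06. The kinetochore genes Ttk and Ndc80 and the spindle protein Nusap1 were not called, at 0.12 ± 0.31, 0.38 ± 0.17 and 0.31 ± 0.15, and neither was E2f1 at 0.16 ± 0.13. Hmgb2 lay at 191 to 395 CPM (median 259), Stmn1 at 31.4 to 74.4 CPM (median 47.1), Mki67 at 8.59 to 22.3 CPM (median 17.8) and Top2a at 7.81 to 20.5 CPM (median 13.3) in the libraries labelled KO. Their differences from WT were 0.59 ± 0.08, 0.65 ± 0.10, 0.64 ± 0.10 and 0.40 ± 0.15. The last, of Top2a, had an adjusted p of 0.0335 and was not called with median-of-ratios scaling or without 1 of 5 libraries labelled KO (adjusted p up to 0.106). No gene of the 43 had all WT libraries below all libraries labelled KO, where 0.435% of all genes did.

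Libraries labelled KO and PBS differ in both genotype and injection, and this comparison was added after the other 2 had been seen. Of the 43 genes 17 had a positive and 26 a negative difference, with a median of -0.07. Leaving out 1 library gave medians of -0.14 (without labelled KO ZT21 replicate 3) to -0.05 (without labelled KO ZT9 replicate 1). In the libraries labelled KO 4 genes were called lower and none higher, against 4.3% and 5.43% of all genes. The 4 were Ccnb2 at -0.61 ± 0.15 (adjusted p = 0.0159), Birc5 at -0.49 ± 0.13 (adjusted p = 0.0209), Ube2c at -0.66 ± 0.18 (adjusted p = 0.0296) and Stmn1 at -0.44 ± 0.12 (adjusted p = 0.0298). Stmn1 lost its call in 8 of 30 alternatives (adjusted p up to 0.0593) and Ube2c in 2, without labelled KO ZT3 replicate 3 or PBS ZT3 replicate 1 (up to 0.0537). Markers of other cells also differed here, with 7 of 8 plasmacytoid, 5 of 8 monocyte and macrophage and 4 of 9 NK cell markers lower and 3 of 4 Langerhans cell markers higher in the libraries labelled KO, and their part in these 4 calls was not tested. At an unadjusted p under 0.05 there were 9, against 27.7% of all genes. Over all genes 649 were called higher and 515 lower, and 466 and 720 with median-of-ratios scaling, where the median of the 43 was -0.11. The SE of the 43 differences reached 0.40. No gene had every library labelled KO below every PBS library, where 0.0836% of all genes did.

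**Figure D3:**
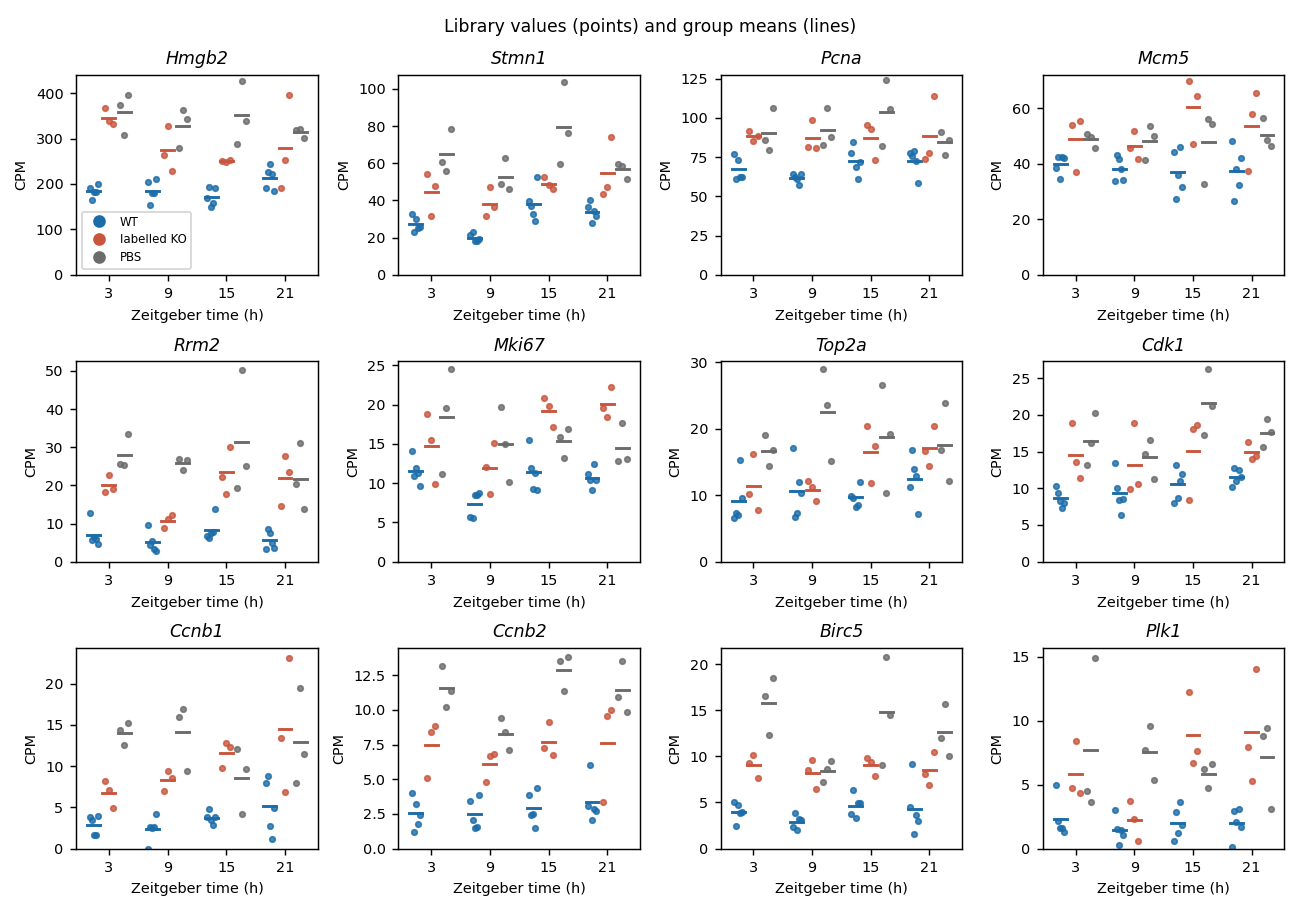
CPM of 12 of the genes in each library (points) at the 4 Zeitgeber times (h), with a line at each group mean, 5 WT, 3 labelled KO and 3 PBS libraries per timepoint, and the axis starting at 0. WT points lie lowest in nearly every panel, and in the Plk1 and Rrm2 panels the ZT9 libraries labelled KO lie lower than those of the other times.

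The direction of both comparisons with WT held in the median of the 43 genes at each timepoint taken alone. For WT against PBS, the median difference of the 43 genes was -0.89 at ZT3, -0.78 at ZT9, -0.68 at ZT15 and -0.74 at ZT21, with 43, 41, 40 and 42 of them below 0. Medians over all genes tested were -0.09, 0.004, -0.11 and -0.01 in this comparison. Against WT, the libraries labelled KO had medians of 0.68, 0.44, 0.76 and 0.74, with 43, 35, 43 and 40 above 0. Between the libraries labelled KO and PBS the median changed sign, at -0.12, -0.27, 0.22 and 0.02, with 29, 39, 18 and 20 genes below 0, beside medians over all genes of -0.03, -0.05, 0.13 and 0.09. Over all genes tested, the libraries labelled KO against WT had medians of 0.08, -0.05, 0.25 and 0.12. In that comparison the smaller ZT9 value of the 43 went with a lower value of the whole table. The mean log2(CPM + 0.5) over the 43 genes was 2.92 ± 0.06 (SD, n = 5) in WT, 3.42 ± 0.21 (n = 3) in the libraries labelled KO and 3.82 ± 0.13 (n = 3) in PBS at ZT9, and 3.01 ± 0.08, 3.90 ± 0.09 and 3.75 ± 0.23 at ZT15. Over all times it ran from 2.57 to 3.27 in WT, 3.24 to 4.07 in the libraries labelled KO and 3.51 to 4.17 in PBS. Between WT and the other conditions, only WT ZT21 replicate 2 and a library labelled KO at ZT9 overlapped. The libraries labelled KO and PBS overlapped over most of their ranges.

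Whether this difference itself depended on the time of day was tested by interaction terms. For the libraries labelled KO against WT, 5 of the 43 genes had p under 0.05, against 18.3% of all genes. None of the 43 passed adjustment, and only 6 of all 11963 genes tested did. Array weights gave 9, of which 3 passed adjustment, and leaving out 1 library gave 4 (without WT ZT3 replicate 5) to 8 (without labelled KO ZT21 replicate 2). They were, by limma, Cenpe, a kinetochore motor (adjusted p = 0.137), Tpx2, which activates Aurora A (adjusted p = 0.151), the checkpoint genes Bub1 (adjusted p = 0.178) and Bub1b, and Mcm2. Cenpe averaged 5.34 ± 0.72 CPM (SD, n = 5) in WT and 4.55 ± 2.22 CPM (n = 3) in the libraries labelled KO at ZT9, and 2.997 ± 1.204 and 9.30 ± 2.77 CPM at ZT15. The WT mean was the higher of the pair at ZT9 and the lower at ZT15. Bub1 was at 1.37, 1.13 and 0 CPM in the 3 ZT9 libraries labelled KO and at 2.19 to 8.69 CPM in the 9 others, while WT ZT9 lay at 0.86 to 2.09 CPM. For WT against PBS 3 genes had p under 0.05 (Cenpe, Tpx2 and Aurka), against 11.9% of all. Leaving out 1 library gave 1 (without WT ZT15 replicate 1) to 5 (without PBS ZT15 replicate 3). None passed adjustment in this comparison, neither of the 43 nor of all genes tested. Over all times Cenpe lay at 1.86 to 7.199 CPM (median 4.40) in WT, 2.85 to 12.04 CPM (median 7.52) in the libraries labelled KO and 3.25 to 11.6 CPM (median 6.52) in PBS. Tpx2 lay at 3.80 to 11.7 CPM (median 6.05), 4.73 to 23.4 CPM (median 10.7) and 5.17 to 17.3 CPM (median 9.85) in the same order. The conditions overlapped in both genes.

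**Figure D4:**
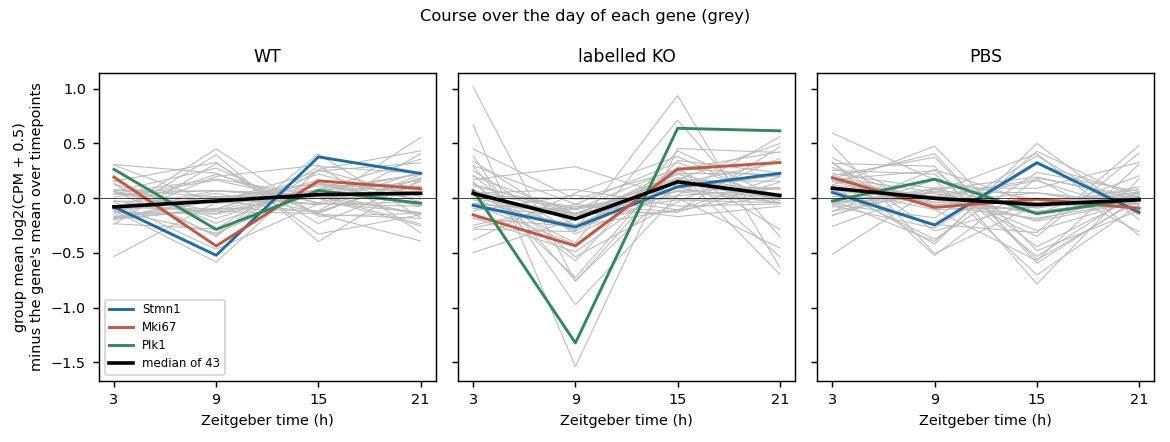
Course over the day of the 43 genes (grey lines) in each condition, as the group mean of log2(CPM + 0.5) minus the gene's mean over the 4 timepoints, with Stmn1, Mki67 and Plk1 in colour and the median of the 43 in black. The median stays close to 0 in WT and PBS, and in the libraries labelled KO it dips at ZT9, where Plk1 falls by more than 1 log2 unit below its mean.

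Time of day within a condition was tested by fitting a daily cosine (cosinor) and, without a curve, by an F test among the 4 timepoints, both in limma. In WT the cosinor gave p under 0.05 for 4 of the 43 genes, against 9.2% of all genes. At an adjusted p under 0.05 it gave none of the 43, and only 3 of all 11963 genes tested. With array weights the counts of the 43 were 9 and 1, and 1 of them passed adjustment without WT ZT3 replicate 3. The F test gave 7, against 23.1% of all, and 4 (without WT ZT3 replicate 4) to 9 on leaving out 1 library. After adjustment it gave 2, against 5.28% of all. These 2 were Stmn1 and Mki67, and with array weights 7 genes passed adjustment, both of them included. Stmn1 stood at 18.2 to 23.0 CPM in the 5 libraries of ZT9 and at 29.1 to 52.4 CPM in those of ZT15, without overlap, with means of 27.4 ± 3.9 (SD, n = 5) at ZT3, 19.96 ± 2.08 at ZT9, 38.3 ± 8.9 at ZT15 and 34.0 ± 4.6 at ZT21. The F test gave an adjusted p of 0.00702. Its cosinor amplitude was 0.44 on the log2 scale with the peak at 18.9 h (limma, adjusted p = 0.125). Mki67 was at 5.57 to 8.74 CPM at ZT9 and at 9.11 to 15.5 CPM at the other times, again without overlap. The adjusted p was 0.0478, and it was above 0.05 in 21 of 26 alternative fits (0.0240 to 0.136). Mcm3 (peak at 8.78 h, amplitude 0.21) and Tpx2 (11.9 h, 0.35) had their fitted peaks in the light phase, with adjusted p of 0.432 and 0.444. Mcm3 lay at 50.4 to 88.9 CPM (median 72.6) in WT, 72.2 to 107 CPM (median 87.7) in the libraries labelled KO and 66.4 to 103 CPM (median 83.7) in PBS.

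In the libraries labelled KO the cosinor gave p under 0.05 for 6 of the 43 genes, against 10.5% of all, and the F test also for 6, against 10.3%. None passed adjustment in either, and neither did any of all genes tested. The cosinor gave 3 with median-of-ratios scaling and 4 to 8 on leaving out 1 library. The F test gave 12 with array weights and 3 (without labelled KO ZT9 replicate 1) to 8 (without labelled KO ZT21 replicate 3). The 6 of the cosinor were Plk1, Mki67, Prc1, Mcm7, Top2a and Rrm2, and all had their fitted peak between 18.3 and 21.9 h. Plk1 was at 3.69, 2.32 and 0.57 CPM at ZT9 and at 4.37 to 14.0 CPM in the other 9 libraries, with a cosinor amplitude of 1.01 (limma, adjusted p = 0.396). Rrm2 averaged 10.7 ± 1.8 CPM (n = 3) at ZT9 and 20.04 ± 2.36, 23.4 ± 6.2 and 21.9 ± 6.8 CPM at the other times in their order (adjusted p = 0.355 by limma's F test). The midzone protein Prc1 averaged 1.86 ± 0.87 CPM at ZT9 and 4.50 to 6.17 CPM at the other times, and its libraries lay at 0.22 to 5.66 CPM (median 1.85) in WT and 1.05 to 8.21 CPM (median 4.45) in PBS. Of the 43 genes 31 had their lowest mean at ZT9 in these libraries, against 15 in WT and 10 in PBS. These are 72.1%, 34.9% and 23.3% of them, and of all genes tested 37.4%, 20.1% and 20.7% had their lowest mean at ZT9, so in the libraries labelled KO it was also the commonest low point of the whole table.

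In PBS the cosinor gave p under 0.05 for 4 genes, against 7.38% of all, and the F test for 5, against 7.44%. After adjustment neither test called any of the 43, nor any of all genes tested. The cosinor gave 2 with the replicate block and 1 (without PBS ZT3 replicate 2) to 5 on leaving out 1 library, and the F test 3 (without PBS ZT15 replicate 1) to 7. The 4 were Cdc6 (peak at 3.66 h), Nusap1 (4.79 h), Rrm1 (4.36 h) and the thymidylate synthase Tyms (12.5 h). Rrm1 averaged 61.0 ± 9.6, 64.1 ± 5.2, 40.0 ± 9.3 and 54.8 ± 7.0 CPM at ZT3, ZT9, ZT15 and ZT21 (n = 3 each). Tyms lay at 10.7 to 24.3 CPM (median 14.8) in WT, 15.8 to 34.3 CPM (median 20.7) in the libraries labelled KO and 14.6 to 32.8 CPM (median 23.2) in PBS. Nusap1 lay at 3.70 to 12.2 CPM (median 6.68), 5.67 to 18.7 CPM (median 8.06) and 7.16 to 23.2 CPM (median 11.6) in the same order. Ccnb2 was the fifth in the F test. Here 22 genes (51.2%) had their lowest mean at ZT15, as did 34.0% of all genes tested. The median range between the highest and lowest timepoint mean was 0.41 in WT, 0.57 in the libraries labelled KO and 0.52 in PBS on the log2 scale. The median SD among replicates of a gene was 0.39, 0.44 and 0.38, against 0.31, 0.35 and 0.31 over all genes.

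The rest of the pathway was read from 5 lists of other cell cycle genes, 122 of them tested. Of the 122 genes 61 were called higher and 3 lower in the libraries labelled KO against WT, and 5 higher and 62 lower in WT against PBS. The counts of these lists stand beside 23.5% of all genes called higher and 10.2% lower in the former comparison, and 13.3% and 24.6% in the latter. Among 40 other replication genes 20 were higher in the libraries labelled KO and 20 lower in WT against PBS, and among 38 other mitosis genes 22 were higher and 24 lower, 1 being higher in WT than PBS. The primase subunit Prim1 was at 8.63 to 14.2 CPM in the libraries labelled KO, 3.74 to 7.84 CPM in WT and 4.86 to 14.2 CPM in PBS, and differed from WT by 0.88 ± 0.09. Slbp, which binds histone mRNA, lay at 103 to 135 CPM, 71.0 to 99.6 CPM and 91.9 to 137 CPM and differed by 0.56 ± 0.06. The WT libraries of both genes lay wholly below those labelled KO, as did those of 0.435% of all genes tested. Both were named for their small p, so this separation was picked from the same values.

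Of 16 transcription factors of the E2F and MuvB groups and MYC family, 7 were called higher in the libraries labelled KO and 7 lower in WT against PBS. Myc itself, a driver of growth, was at 5.59 to 17.4 CPM in WT, 13.8 to 39.6 CPM in the libraries labelled KO and 21.5 to 42.6 CPM in PBS, and differed from PBS by -1.36 ± 0.11. Mycn was at 0 to 0.79 CPM in WT and reached 2.62 CPM in the libraries labelled KO and 2.27 CPM in PBS. Dut, which encodes dUTPase, lay at 10.03 to 21.03 CPM in WT, 11.8 to 32.1 CPM in the libraries labelled KO and 17.2 to 42.7 CPM in PBS, and differed from PBS by -0.88 ± 0.10. The 17 G1 and S phase cyclins and kinases were mixed, with 9 higher and 2 lower in the libraries labelled KO, and 2 higher and 8 lower in WT against PBS. Ccnd1 and Cdk6, cyclin D1 and its kinase, went against the others and were named after their values were seen. Ccnd1 lay at 45.5 to 106 CPM in WT, 26.3 to 53.3 CPM in the libraries labelled KO and 38.1 to 83.6 CPM in PBS, and Cdk6 at 11.6 to 24.1, 4.83 to 11.8 and 7.27 to 14.2 CPM. Cyclin D2, Ccnd2, had the direction of the 43 genes, at 0.58 ± 0.10 against WT. Of 11 CDK inhibitors and pocket proteins 3 were higher and 1 lower in the libraries labelled KO, and 2 higher and 3 lower in WT against PBS, shares near those of all genes.

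Markers of other cells were read in the same comparisons, beside the 23.5% of all genes called higher in the libraries labelled KO than in WT and the 24.6% called lower in WT than in PBS. The 8 monocyte and macrophage markers summed to 396 to 1059 CPM (median 648) in WT, 864 to 3034 CPM (median 1606) in the libraries labelled KO and 1722 to 3171 CPM (median 2396) in PBS, with 7 of 8 higher in the libraries labelled KO and 7 of 8 lower in WT against PBS. Mertk was at 0 in 3, 7 and 3 libraries of the conditions and Fcgr1 in 3 of WT. The 9 NK cell markers summed to 29.6 to 79.4 CPM in WT, 50.3 to 175 CPM in the libraries labelled KO and 107 to 650 CPM in PBS, with 6 of 9 higher and 8 of 9 lower, and Ncr1 and Klrb1c at 0 in 2 WT libraries each and Klra8 in 14. The 6 markers of type 2 dendritic cells summed to 137 to 283, 143 to 629 and 191 to 374 CPM, with 4 of 6 higher and 4 of 6 lower. Markers of germinal centre B cells and plasma cells summed to 177 to 266, 254 to 366 and 267 to 339 CPM, with 6 of the 9 tested higher and 4 lower. The plasma cell marker Tnfrsf17 was at 0 in all 12 libraries labelled KO and in 15 WT libraries. Of 17 T cell markers 5 were higher and 2 lower in the libraries labelled KO, and 3 higher and 13 lower in WT against PBS, with sums of 527 to 1054, 645 to 1476 and 768 to 1555 CPM. Of 12 B cell markers tested 4 were higher and 5 lower, with sums of 48.8 to 83.9, 66.3 to 199 and 90.8 to 151 CPM. Langerhans cell markers were 3 of 4 higher and 2 of 4 lower, with sums of 84.7 to 147, 116 to 219 and 105 to 153 CPM.

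None of the 9 dendritic cell markers was called between the libraries labelled KO and WT, and 3 were lower in WT than in PBS. Type 1 dendritic cell markers were 2 of 7 higher and 1 lower in the libraries labelled KO, with 1 higher and 6 lower in WT against PBS. Plasmacytoid markers were 2 of 8 higher and 2 lower, and 1 higher and 5 lower. Melanoma markers summed to at most 22.1 CPM in any library, and Mlana, Tyrp1 and Dct were at 0 in all 12 PBS libraries, in 18, 18 and 17 WT libraries and in 9, 10 and 10 of those labelled KO. Granulocyte markers summed to at most 25.9 CPM, erythroid markers to at most 35.4 CPM and stromal and endothelial markers to at most 23.2 CPM. The part that these markers and the depth have in the cell cycle results was not tested.

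**Figure D5:**
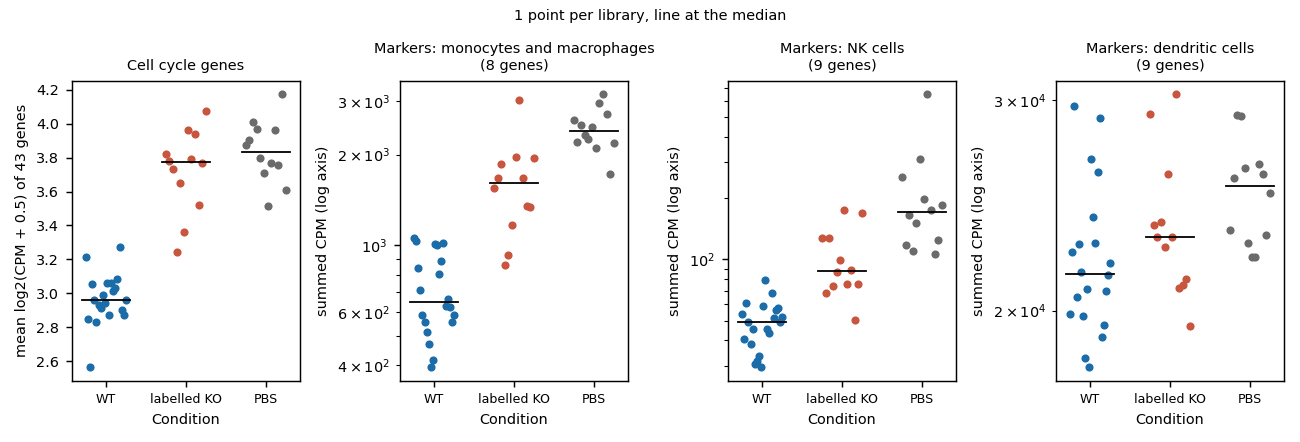
Mean log2(CPM + 0.5) of the 43 genes (left) and summed CPM of 3 marker lists on log axes in each library (points), by condition, with a line at the median. The WT libraries lie lowest in the first panel but for 1 overlap (WT at 3.27 against a library labelled KO at 3.24) and mostly in the monocyte and NK cell panels, whereas the dendritic cell markers overlap between the conditions.

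Within a condition and timepoint the genes varied together only weakly. After taking each group's mean from every library, the 903 pairs of the 43 genes had a median Pearson's r of 0.10 over the 44 libraries, and 68.5% of pairs were above 0. The median was 0.09 among the 351 pairs of mitosis and chromosome genes, 0.11 among the 120 pairs of replication genes and 0.09 between the 2 kinds. These pairs share libraries and depth, so the values only describe the table. The genes outside all lists whose deviations were most like the mean of the 43 were Cdca2, a chromosome protein, at r = 0.72, then Wnt10a at 0.66, Idh3b at 0.65, Cnot8 at 0.64, Slc7a4 at 0.63, Eif2b5, Sult2b1 and the nuclear lamina gene Lmnb1 at 0.61 each, Fbxo10 at 0.59 and Klc4 at 0.58, over 44 libraries.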

How the data were processed

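RNA of sorted cells was made into cDNA with the SMART-Seq v4 kit from 1 ng and sequenced as single reads of 50 bases. Per the study's methods and the submitters' processing notes, the authors mapped reads to mm10 with STAR, counted them per gene with HTSeq 0.9.1 and scaled them by library size. The deposited table holds CPM values, reads scaled to the library, that sum to 1000000 in each of 44 libraries. A 1-read step could be recovered in each library, but only 87.4% to 89.3% of its values above 0 came out as whole reads (within 0.01 reads), so no count test was run.

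Tests used limma 3.58.1 in R 4.3.3 on log2(CPM + 0.5), over the 11963 genes that reached 1 CPM in 5 or more libraries, with Benjamini-Hochberg adjustment over all of them. Conditions were compared by the mean over timepoints, each weighing the same. Time was tested by a 24-h cosinor and by an F test, and a difference in course by interaction terms. The procedure was tested on simulated data. Differences are on the log2(CPM + 0.5) scale and understate changes of low genes. Exon lengths come from GENCODE vM21, promoters from RefSeq (GRCm38.p6). Errors cover the spread of libraries, which held 20088012 or more reads on genes.

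The genes and lists were chosen with earlier results of these data known. Values per condition are given for 10 listed genes, for up to 6 called genes and the 3 with the smallest p of each comparison, and for the highest and lowest levels per kilobase. From the pathway lists the 3 with the smallest p of each comparison are named, and outside the lists the 10 with the most similar deviations. Alternatives were pseudocounts of 1 and 0.1, median-of-ratios scaling, no filter, weights per array, a block on the replicate number and leaving out each library.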

Additional observations from a re-analysis of the deposited data

Results flagged for a closer look

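In 4 cases 1 WT library stood apart from the 4 others of its timepoint by Dixon's test at the 95% level. Plk1 was at 4.96 CPM in WT ZT3 replicate 1, where the median of the 5 libraries was 1.64 CPM. In the same library Rrm2 was at 12.8 CPM, with a median of 5.85 CPM. Rrm2 was also high in WT ZT15 replicate 5, at 13.7 CPM against 7.53 CPM. Ccnb2 was at 6.03 CPM in WT ZT21 replicate 2, against 2.86 CPM. All 4 were high values, and these libraries therefore lessen rather than widen the gap between WT and the other conditions. Of 100 such tests on the named genes in the 4 WT groups, chance flags about 1 in 20, or 5, so that 4 is not above it. No interaction of the 43 genes with the time of day passed an adjusted p under 0.05 in limma, except 3 for labelled KO and WT under array weights. In the main fits only 6 of all genes tested passed for labelled KO and WT, and none for WT and PBS.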

How the results depend on the processing

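The 2 main comparisons kept their direction in every alternative run. Of the 38 genes called higher in the libraries labelled KO against WT, 35 to 38 were called in the 6 alternatives of processing and 34 to 38 without each library, and of the 39 called lower in WT against PBS, 37 to 39 in both. Median-of-ratios scaling and the replicate block gave 35 higher, and the block 37 lower. Counts over time were less firm. Array weights gave 9 genes for the cosinor in WT, 12 for the F test in the libraries labelled KO and 9 for the interaction of labelled KO and WT, in place of 4, 6 and 5 (the weights did not fully converge in every fit). Median-of-ratios scaling gave 3 for the cosinor in the libraries labelled KO, and the replicate block gave 2 for that in PBS. The cause was not tested.

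Leaving out 1 library gave 3 to 6 for the cosinor in WT, 4 to 8 in labelled KO and 1 to 5 in PBS, and 4 to 9, 3 to 8 and 3 to 7 for the F tests. It gave 4 to 8 for the interaction of labelled KO and WT, 1 to 5 for that of WT and PBS, 34 to 39 higher in labelled KO against WT, 37 to 40 lower in WT against PBS, and 0 to 1 higher and 3 to 6 lower in labelled KO against PBS. The call of Aurka in labelled KO against WT was lost in 17 of 38 alternatives (adjusted p up to 0.177), that of Top2a in 6 (up to 0.106: median-of-ratios scaling, and without labelled KO ZT3 replicate 2, ZT9 replicate 1, ZT15 replicates 1 or 3, or ZT21 replicate 3), that of Bub1 in WT against PBS in 8 (up to 0.0875), and those of Stmn1 and Ube2c in labelled KO against PBS in 8 and 2 of 30 (Ube2c without labelled KO ZT3 replicate 3 or PBS ZT3 replicate 1). Same-numbered libraries did not deviate together (Pearson's r of -0.24 to 0.17 over pairs within WT or between WT and the other conditions). This check found no pairing by number, and it cannot show which mice shared an experiment. The block took the adjusted F test in WT from 2 genes to 1 (Mki67 was lost). Beside that and the cosinor in PBS, it changed the counts by less than 1.5 times. At an adjusted p under 0.05, array weights gave 1 gene for the cosinor in WT, 7 for its F test and 3 for the interaction of labelled KO and WT in place of 0, 2 and 0, and leaving out WT ZT3 replicate 3 gave 1 for the cosinor in WT. The shallowest library holds 20088012 reads, 1 of them worth 0.0498 CPM.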
